A study of Mus musculus with 16 samples.

Results

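The genes described here are the histone genes of the expression table, that is, every row whose name starts with Hist and a cluster number, or with H2af, H3f or H1f. The rule found 82 of the 22552 genes in the table, 68 replication-dependent cluster genes (Hist genes) and 14 genes for replacement variants. It goes by name alone, so it takes in Hist2h3c2-ps and Hist3h2bb-ps, which are named as pseudogenes. The annotation used here also lists H2afy3 and H1f0 as pseudogenes. Expression was measured by RNA sequencing in 16 mouse cell lines, 1 library per line, and is given as FPKM, that is, fragments scaled by transcript length and sequencing depth, on which genes of unequal length can be set side by side. The lines came from adipocyte progenitor cells (APCs) of the strain labelled 129-M2rtTA, which carries the doxycycline-dependent transactivator, and the APCs were taken from mice made entirely of induced pluripotent stem cells.

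Nuclear transfer embryonic stem cell lines (AN) were made by moving APC nuclei into oocytes, and induced pluripotent stem cell lines (AI) by switching on the reprogramming factors that the same APCs carried. Full reprogramming (F) or partial reprogramming (P) had been assigned to each line by tetraploid complementation, in which only fully competent cells give a whole mouse. The groups were AN F (4 lines numbered AN1, AN9, AN15 and AN20, at passage 6 or 7), AN P (5 lines numbered AN2, AN3, AN5, AN6 and AN7, at passage 5 to 7), AI F (4 lines, AI3, AI7 and AI10 at passage 7 and GS32 at passage 13) and AI P (3 lines, AI9 at passage 7, GS4 at passage 17 and GS9 at passage 6). The AI lines were induced with doxycycline, which is not named for the AN lines. No agent is named for the comparison itself, and all lines were grown in serum and LIF. GS4, GS9 and GS32 had been derived earlier. The labels of GS9 and GS32 name GS4 as the source, and the line was taken from the sample title. Within AI the earlier derivations are unevenly spread, with GS4 and GS9 among the 3 AI P lines and GS32 among the 4 AI F lines. Passages above 7 occur in both, in GS4 and GS32. Each line is a separate derivation of cells from 1 donor cell type, and p-values measure the spread between lines.

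Core histones H2A, H2B, H3 and H4 wrap DNA into nucleosomes, and linker histone H1 binds the DNA between them. The Hist genes are transcribed in S phase, and their mRNAs end in a conserved stem-loop in place of a poly(A) tail, so a library made from polyadenylated RNA holds few of their fragments. Replacement variants such as H2A.Z and H3.3 are made throughout the cell cycle from genes with introns and polyadenylated mRNAs, and are laid down outside replication by dedicated chaperones. Embryonic stem cells spend much of their short cycle in S phase. Whether poly(A) selection or another depletion step was used is not given in the sources used here.

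Because the 3′ end separates the classes, the stem-loop was searched in the mm9 genome, in the 150 bases after the annotated stop codon and on the sense strand only, as GGNNNTTTNNANNNCC with the last 6 bases pairing with the first 6. It was found in 61 of the 66 Hist genes that could be searched, in 1 of 12 replacement variants (H2afx) and in 2 of 21727 other protein-coding genes (0.00921%). The Hist genes searched without a match were Hist1h2an, Hist1h3g, Hist1h4a, Hist2h2bb and Hist2h2be. The loops below belong to members whose values are given later, with the stem-loop in capitals and coordinates in mm9, so that the shared stem and its base changes can be seen.
Hist1h2bc, chr13:23776512-23776536, plus strand: caaaGGCTCTTTTCAGAGCCaccca
Hist1h1c, chr13:23831377-23831401, plus strand: aaaaGGCTCTTTTCAGAGCCaccac
Hist1h2bb, chr13:23839068-23839092, plus strand: caaaGGCTCTTTTAAGAGCCaccca
Hist1h4i, chr13:22132830-22132854, minus strand: taaaGGCCCTTTTTAGGGCCaccac
Hist1h4m, chr13:21903994-21904018, plus strand: taaaGGCCCTTTTCAGGGCCatcca
Hist1h4b, chr13:23849231-23849255, plus strand: aaaaGGTCCTTTTCAGGACCactca
H2afx, chr9:44143319-44143343, plus strand: caaaGGCCCTTTTAAGGGCCaccac

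In all, 7 forms of the loop were present, and the form of Hist1h2bc and Hist1h1c was the most frequent, in 39 of 62 members. The form of Hist1h4b was shared with Hist1h4j alone, and that of H2afx was in no other member. A match describes the letters and not processing at that site. Of the 61 Hist genes with a loop, 41 have a GENCODE annotation that reaches at most 100 bases past it in any transcript. Their median mean level was 0.375 FPKM. For the other 20 at least 1 annotated transcript runs further, and their median was 0.492 FPKM. The gene models behind the FPKM values may end elsewhere. Hist1h2bc, the highest Hist gene, belongs to the second set, with an annotated second exon ending 7826 bases past the loop.

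The replacement variants held nearly all of the histone signal. Summed over members and averaged over the 16 lines, they reached 2488 ± 243 FPKM (SD, n = 16), and the Hist genes 78.9 ± 8.26 FPKM. The Hist genes thus made up 3.07% of the summed mean FPKM, and per line the variant sum was between 23.1 times (AN3) and 38.0 times (GS4) the Hist sum. The ratio overlapped in every pair of groups, with a mean of 32.8 ± 3.52 for AI F, 31.9 ± 5.43 for AI P, 32.5 ± 3.25 for AN F and 30.5 ± 5.49 for AN P. What sets the low Hist share was not tested. In bulk libraries RNA selection, sequence shared between copies, the share of cells in S phase and histone mRNA per cell cannot be told apart.

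**Figure D1:**
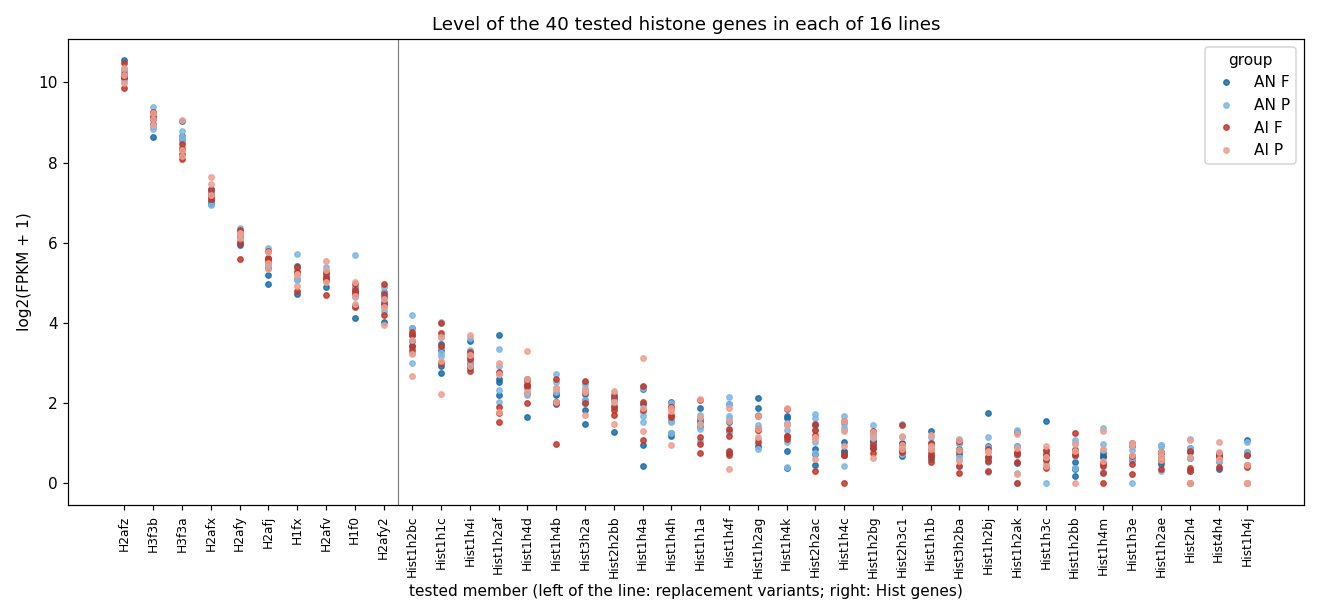
Level of the 40 tested histone genes, as log2(FPKM + 1), with 1 point per line coloured by group. All 10 replacement variants on the left lie above 22 FPKM on average, and Hist1h2bc, the first Hist gene, averages 10.6 FPKM.

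Genes with a mean of at least 0.5 FPKM over the lines were tested, which kept 13185 genes of the table and 40 of the 82 members. These were 10 of 14 variants and 30 of 68 Hist genes. By type, 3 of 6 Hist H1 genes, 6 of 18 H2A, 6 of 19 H2B, 3 of 12 H3 and 12 of 13 H4 genes were tested. H4 was thus the type best covered among Hist genes. Of the 38 Hist genes below the filter, 8 were listed at 0 in every line (Hist1h2ad, Hist1h2ao, Hist1h2ap, Hist1h2bq, Hist1h2br, Hist1h4n, Hist2h2aa1 and Hist2h2aa2), and the highest, Hist1h2ab, averaged 0.440 FPKM. The 4 variants below the filter were H1foo and H1fnt, linker histones of oocytes and spermatids, H2afb1 and H2afy3, annotated as a pseudogene. Their means were 0.00700 to 0.0830 FPKM. The other testis genes among the members, Hist1h1t, Hist1h2aa and Hist1h2ba, were also below the filter, at 0.0429, 0.0986 and 0.108 FPKM.

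H2afz, which encodes H2A.Z, a variant found at promoters, was the highest member. Its gene is at chr3:137527451-137529886 (mm9, plus strand), with up to 5 exons in the annotation. In AN F it was at 1137 FPKM in AN1, 1508 in AN9, 1105 in AN15 and 1117 in AN20, and in AN P at 1291 in AN2, 1045 in AN3, 1245 in AN5, 1285 in AN6 and 1269 in AN7. In AI F it was at 1120 FPKM in AI3, 1438 in AI7, 1182 in AI10 and 932 in GS32, and in AI P at 1315 in GS4, 1161 in GS9 and 1016 in AI9. The groups overlapped throughout. The highest line was 1.62 times the lowest, and the difference between F and P was -0.02 ± 0.11 (log2, SE) within AN and -0.00436 ± 0.19 within AI.

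The pair H3f3b and H3f3a encodes the same H3.3 protein, the replacement form of H3 used in transcribed genes and at telomeres. H3f3b, at chr11:115883226-115889276 on the minus strand, was at 599 FPKM in AN1, 495 in AN9, 482 in AN15 and 401 in AN20, against 550 in AN2, 458 in AN3, 583 in AN5, 665 in AN6 and 481 in AN7. Among AI F lines it was at 546 FPKM in AI3, 563 in AI7, 616 in AI10 and 545 in GS32, and among AI P lines at 602 in GS4, 545 in GS9 and 493 in AI9. The F and P groups overlapped on each side. H3f3a, at chr1:182730963-182744074 on the minus strand, was at 375 FPKM in AN1, 521 in AN9, 321 in AN15 and 406 in AN20, and at 369 in AN2, 289 in AN3, 396 in AN5, 445 in AN6 and 331 in AN7. For the AI F lines it was at 272 FPKM in AI3, 323 in AI7, 355 in AI10 and 295 in GS32, and for AI P at 318 in GS4, 538 in GS9 and 284 in AI9. H3f3a was lower than H3f3b on average, 365 against 539 FPKM. GS9 had the highest H3f3a level of all lines. The FPKM sum over all genes was also highest in GS9, at 963434, where the 16 lines averaged 748164. Without small RNA genes the sum was 757578 in GS9 and 625350 in GS4, the next line. The part of this scaling in the GS9 values was not tested. H3f3a overlaps the annotated genes Gm16067 and Gm17275.

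H2afx encodes H2A.X, which is phosphorylated around DNA breaks, and its mRNA can end at a stem-loop or at a poly(A) tail. It was at 151 FPKM in AN1, 130 in AN9, 161 in AN15 and 125 in AN20, and at 151 in AN2, 156 in AN3, 154 in AN5, 123 in AN6 and 152 in AN7. On the AI side it was at 146 FPKM in AI3, 159 in AI7, 141 in AI10 and 137 in GS32, and at 198 in GS4, 176 in GS9 and 145 in AI9. GS4 and GS9 were above every other line, and AI9 lay among the AI F lines. With a mean of 150 FPKM it was the highest member with a stem-loop match, ahead of Hist1h2bc.

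H2afy encodes macroH2A1, a variant with a large extra domain that is linked to silent chromatin. Its level was 69.6 FPKM in AN1, 62.4 in AN9, 77 in AN15 and 60.4 in AN20, and 76.4 in AN2, 76.1 in AN3, 78.6 in AN5, 82.1 in AN6 and 66.1 in AN7. The AI F lines were at 47.3 FPKM in AI3, 73.0 in AI7, 79.3 in AI10 and 63.4 in GS32, and the AI P lines at 68.1 in GS4, 75.5 in GS9 and 73.3 in AI9. Within AN, F was at 67.4 ± 7.56 FPKM (SD, n = 4) and P at 75.8 ± 5.95 (n = 5), with overlapping lines. H2afj is given below with the comparisons, and the remaining variants, H1fx, H2afv, H1f0 and H2afy2, averaged 35.9, 34.9, 26.7 and 22.2 FPKM.

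In descending order of mean level the variants ran H2afz, H3f3b, H3f3a, H2afx, H2afy, H2afj, H1fx, H2afv, H1f0 and H2afy2. H2afz was above every other member in every line. H3f3b and H3f3a ranges met, at 401 to 665 and 272 to 538 FPKM. From H2afx to H2afy the ranges were apart, at 123 to 198 and 47.3 to 82.1 FPKM, and from H2afy to H2afj they overlapped, since H2afj ran from 30.5 to 57.0 FPKM.

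**Figure D2:**
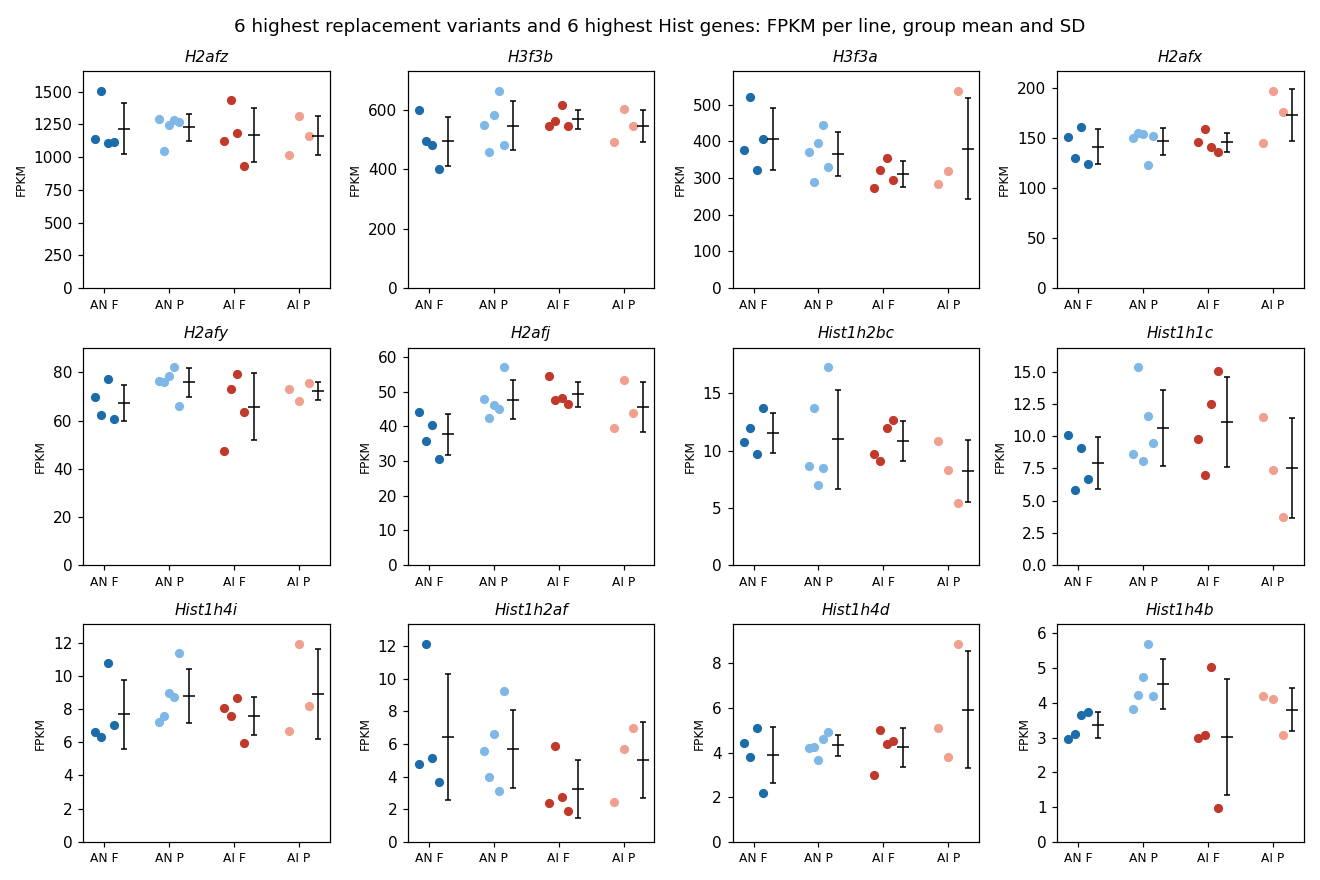
FPKM per line for the 6 highest replacement variants and the 6 highest Hist genes, with the group mean and SD in black. Within each panel most groups overlap, and the AN F lines of Hist1h4b, at 2.97 to 3.74 FPKM, lie below the AN P lines at 3.82 to 5.68 FPKM.

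Among Hist genes, 17 of 68 averaged at least 1 FPKM and 1 averaged at least 10. Of those with a place in the annotation, 54 lie on chromosome 13 between 21807632 and 24026720, 9 on chromosome 3, 3 on chromosome 11 and 1 on chromosome 6 (mm9). The cluster on chromosome 13 held 23 of the 30 tested genes. Its most abundant gene, Hist1h2bc (chr13:23776068-23784357, plus strand), encodes a canonical H2B. It was at 10.8 FPKM in AN1, 12 in AN9, 9.67 in AN15 and 13.7 in AN20, and at 8.61 in AN2, 13.7 in AN3, 7.00 in AN5, 8.46 in AN6 and 17.3 in AN7. In the AI lines it was at 9.70 FPKM in AI3, 9.10 in AI7, 12 in AI10, 12.7 in GS32, 10.8 in AI9, 8.31 in GS4 and 5.44 in GS9. AN P alone spanned nearly the whole range, from 7.00 to 17.3 FPKM.

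Hist1h1c encodes the linker histone H1.2. It was at 10.1 FPKM in AN1, 5.79 in AN9, 9.10 in AN15 and 6.66 in AN20, and at 8.61 in AN2, 15.3 in AN3, 8.08 in AN5, 11.6 in AN6 and 9.49 in AN7. The AI F values were 9.80 FPKM in AI3, 7.00 in AI7, 12.5 in AI10 and 15.1 in GS32, and the AI P values 11.5 in AI9, 7.37 in GS4 and 3.73 in GS9. Its highest line was thus AN3 and its lowest GS9, with F and P interleaved in both kinds of line.

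The next Hist genes encode core histones, H4 in the case of Hist1h4i, Hist1h4d and Hist1h4b and H2A in that of Hist1h2af. Hist1h4i was at 6.64 FPKM in AN1, 6.30 in AN9, 10.8 in AN15, 7.02 in AN20, 7.22 in AN2, 7.56 in AN3, 8.96 in AN5, 8.72 in AN6 and 11.4 in AN7. Its AI values were 8.07 FPKM in AI3, 7.55 in AI7, 8.67 in AI10, 5.98 in GS32, 6.65 in AI9, 11.9 in GS4 and 8.18 in GS9. These values overlap in every comparison. Hist1h2af was at 4.77 FPKM in AN1, 12.1 in AN9, 5.11 in AN15, 3.64 in AN20, 5.58 in AN2, 4.0 in AN3, 6.62 in AN5, 3.12 in AN6 and 9.22 in AN7. In AI lines it was at 2.41 FPKM in AI3, 5.86 in AI7, 2.76 in AI10, 1.88 in GS32, 2.45 in AI9, 5.68 in GS4 and 6.98 in GS9. It varied more than the other named Hist genes, with an SD over lines of 0.61 on the log2 scale. Hist1h4d was at 4.45 FPKM in AN1, 3.80 in AN9, 5.10 in AN15, 2.18 in AN20, 4.20 in AN2, 4.23 in AN3, 3.65 in AN5, 4.62 in AN6 and 4.91 in AN7. For the AI lines it was at 2.99 FPKM in AI3, 5.01 in AI7, 4.41 in AI10, 4.51 in GS32, 5.09 in AI9, 3.82 in GS4 and 8.86 in GS9. GS9 stood above all other lines for this gene.

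Hist genes varied more between lines than the variants did. The SD over 16 lines of log2(FPKM + 1) had a median of 0.35 over the 30 tested Hist genes and 0.21 over the 10 variants, where the tested genes nearest in mean level had medians of 0.22 and 0.20. Low read number moves with this result, and its part was not tested. For 8 of the 30 tested Hist genes at least 90% of the values above 0 fell on whole multiples of a smallest step, within 0.1 of a step, after the lines were set to one depth. Only genes of at most 15 steps in every line were counted. The step was fitted from the gene's own smallest value above 0. It is taken as about 1 read, which cannot be checked without read counts. Relative depth, taken from 433 genes whose low values differed by less than 1.5-fold, ran from 0.961 (AI7) to 1.24 (GS4) times that of AN1. Choosing such genes limits the range that can be found, so it does not show that depths were alike. The total number of reads per line is unknown from FPKM, so no counting interval is given.

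Shared sequence also bears on the Hist values, since the reads were 51 bases long and near-identical copies compete for them. A median of 53.4% of the 51-base stretches of a GENCODE Hist transcript occurred at 1 place in mm9, against 88.5% for the variants. Stretches across a splice junction occur at no place in the genome and lower this share without being repeated. In H2afv the share was 83.2%, with 0% at 2 or more places. Hist1h2ao, Hist1h2ap, Hist1h2bq, Hist2h2aa1 and Hist2h2aa2 had no stretch at 1 place, and Hist1h2br had 0.0441%. These 6 genes are among the 8 listed at 0, and the other two, Hist1h4n and Hist1h2ad, had 7.11% and 33.0%. Hist1h4m, at 10.2%, was the least unique tested member. For H2afz the share was 53.0%, with 37.6% at 2 or more places, and none of its repeated stretches lay in another member. H3f3a and H3f3b had 67.5% and 75.6% at 1 place, with 24.4% and 19.4% at 2 or more places. Shared sequence thus also bears on the levels of these variants. How the authors' pipeline divided reads that map to several places was not given in the sources used here. Values of Hist genes with few unique stretches are uncertain. The gene models behind the FPKM values may also differ from the GENCODE transcripts used here. Hist1h4b and Hist1h4k had the same fitted step, 0.365 FPKM, with GENCODE transcripts of 491 and 312 bases. Neither gene met the step rule given above, with 43.8% and 87.5% of values on whole steps, so these steps are uncertain.

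**Figure D3:**
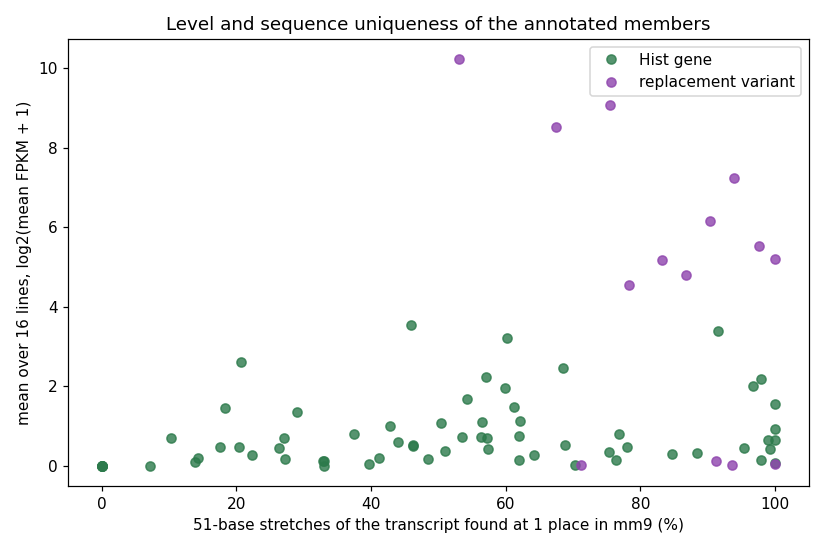
Mean level over 16 lines, as log2(mean FPKM + 1), against the percentage of 51-base stretches of each annotated member found at 1 place in mm9. Hist genes spread over the whole x axis at low levels, and the variants lie at 53.0% or more.

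The first question of the study was how fully and partially reprogrammed lines of the same kind differ. Within AN, no member passed limma's test on log2(FPKM + 1) at an adjusted p of 0.05 (Benjamini-Hochberg over all 13185 genes, smallest adjusted p of a member 0.64), and 0 of all genes (0.0%) passed. At an unadjusted p under 0.05, 4 members were lower in AN F, 3 Hist genes and H2afj, and none was higher, where 2.99% of all genes were lower and 3.02% higher. Of the 30 tested Hist genes 20 had a lower mean in AN F, with a median log2 difference of -0.15, and 9 of 10 variants had one, with a median of -0.12. The median over all genes was -0.01, and 53.8% of them were lower. Without AN20 the variant median was -0.0241, with 6 of 10 lower, and 2 members in place of 4 were lower at an unadjusted p under 0.05, and without AN1 there were 7. Without AN1 the Hist median was -0.0805. Of the fibroblast markers described below, 17 of 20 were lower in AN F (median -0.24), and 8 of 11 pluripotent cell markers were higher (median 0.11). None of these markers passed the adjusted p in any of the 4 pairwise comparisons, and their part in the histone values was not tested.

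Hist1h4b was at 2.97 FPKM in AN1, 3.11 in AN9, 3.64 in AN15 and 3.74 in AN20, and the AN P values were 3.82 in AN2, 4.23 in AN3, 4.75 in AN5, 5.68 in AN6 and 4.21 in AN7. It was the only member whose groups did not overlap within AN, 1 of 40, with AN F lower, where 0.713% of all genes did not overlap in this direction and 0.584% in the other. The difference was -0.34 ± 0.11 (log2, SE), with a limma p of 0.0128, an adjusted p of 0.64 and an exact permutation p of 0.0159, two-sided, the smallest that 4 against 5 lines can give. In AI the gene was at 2.99 FPKM in AI3, 3.09 in AI7, 5.04 in AI10 and 0.965 in GS32, and at 4.12 in GS4, 3.08 in GS9 and 4.19 in AI9, which overlap. Hist1h4b overlaps the annotated gene 4930558J22Rik, and 57.1% of the stretches of its GENCODE transcript were unique. The gene model behind its FPKM values may be shorter or longer. With the lines rescaled by median ratio or to the sum of genes other than small RNAs, the groups within AN overlapped.

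Hist1h2bb, another H2B gene, was at 0.310 FPKM in AN1, 0.289 in AN9, 0.458 in AN15 and 0.130 in AN20, and at 1.12 in AN2, 0.818 in AN3, 0.306 in AN5, 0.595 in AN6 and 1.03 in AN7. AN5 lay within the AN F range. The difference was -0.44 ± 0.14 (log2, SE), with a limma p of 0.0137, an adjusted p of 0.64 and an exact permutation p of 0.0476. In steps of about 1 read this is 2, 2, 3 and 1 in AN F, and 7, 6, 2, 4 and 7 in AN P. For this gene 80.0% of the values fell on whole steps.

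H2afj encodes H2A.J, an H2A variant whose gene lies at chr6:136756769-136758595 (mm9, plus strand), close to Hist4h4. It was at 44.0 FPKM in AN1, 35.8 in AN9, 40.5 in AN15 and 30.5 in AN20, and at 48.0 in AN2, 42.5 in AN3, 46.0 in AN5, 44.9 in AN6 and 57.0 in AN7. AN1 lay above AN3 and below the other AN P lines. The difference was -0.34 ± 0.12 (log2, SE), with a limma p of 0.0192, an adjusted p of 0.64 and an exact permutation p of 0.0317. The fourth member below an unadjusted p of 0.05 was Hist3h2a, at -0.39 ± 0.17 (log2, SE, adjusted p 0.64, limma), and it overlaps Trim17 in the annotation.

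Within AI, no member passed the adjusted p (smallest 0.52, limma) and 0 of all genes (0.0%) did. Hist1h4m, an H4 gene, was the only member at an unadjusted p under 0.05, lower in AI F, where 4.3% of all genes were lower and 3.47% higher. It was listed at 0.206 FPKM in AI3, 0.424 in AI7, 0.346 in AI10 and 0 in GS32, and at 0.485 in GS4, 1.48 in GS9 and 0.823 in AI9. The groups did not overlap, as for 3.19% of all genes in this direction and 1.7% in the other, and no other member was apart. The difference was -0.61 ± 0.19 (log2, SE), with a limma p of 0.0152, an adjusted p of 0.52 and an exact permutation p of 0.0571, the smallest that 4 against 3 lines can give. In steps of about 1 read, the AI F lines held 1, 2, 2 and 0 and the AI P lines 3 (GS4), 7 (GS9) and 5 (AI9). Within AN the same gene ran from 0.408 to 0.685 FPKM in F and from 0.210 to 1.61 in P.

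The next members by p within AI were Hist1h1b, the linker histone H1.5, and H2afx. Hist1h1b was at 0.618 FPKM in AI3, 1.00 in AI7, 0.446 in AI10 and 0.684 in GS32, and at 1.32 in GS4, 0.818 in GS9 and 0.918 in AI9, a difference of -0.26 ± 0.14 (log2, SE), adjusted p 0.52 by limma. AI7 lay among the AI P lines. Across classes, 22 of 30 Hist genes and 5 of 10 variants had a lower mean in AI F, with medians of -0.19 and 0.00, against -0.04 over all genes, 56.3% of which were lower. Among the 12 tested H4 genes, 10 were lower in AI F with a median of -0.26, and within AN 11 were lower in AN F with a median of -0.16. Within AN, 3 of 6 H2A, 3 of 6 H2B, 1 of 3 H3 and 2 of 3 H1 genes were lower, with medians of 0.00195, -0.0443, 0.16 and -0.16. Within AI, 4 of 6 H2A, 4 of 6 H2B, 2 of 3 H3 and 2 of 3 H1 genes were lower, with medians of -0.0663, -0.0373, -0.0579 and -0.26. The types were not tested against each other. The H4 genes share much of their coding sequence and are not independent of each other. With only the 4 Hist genes that average at least 5 FPKM, the Hist median in AI was 0.11, and without GS9 it was -0.06 over the 30. With lines rescaled to the sum of genes other than small RNAs, 18 of 30 were lower, with a median of -0.10 beside 0.10 over all genes. On the AI side all 20 fibroblast markers had the higher mean in F (median 0.90) and 9 of 11 pluripotent cell markers were lower (median -0.42). Their part in the histone values was not tested.

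**Figure D4:**
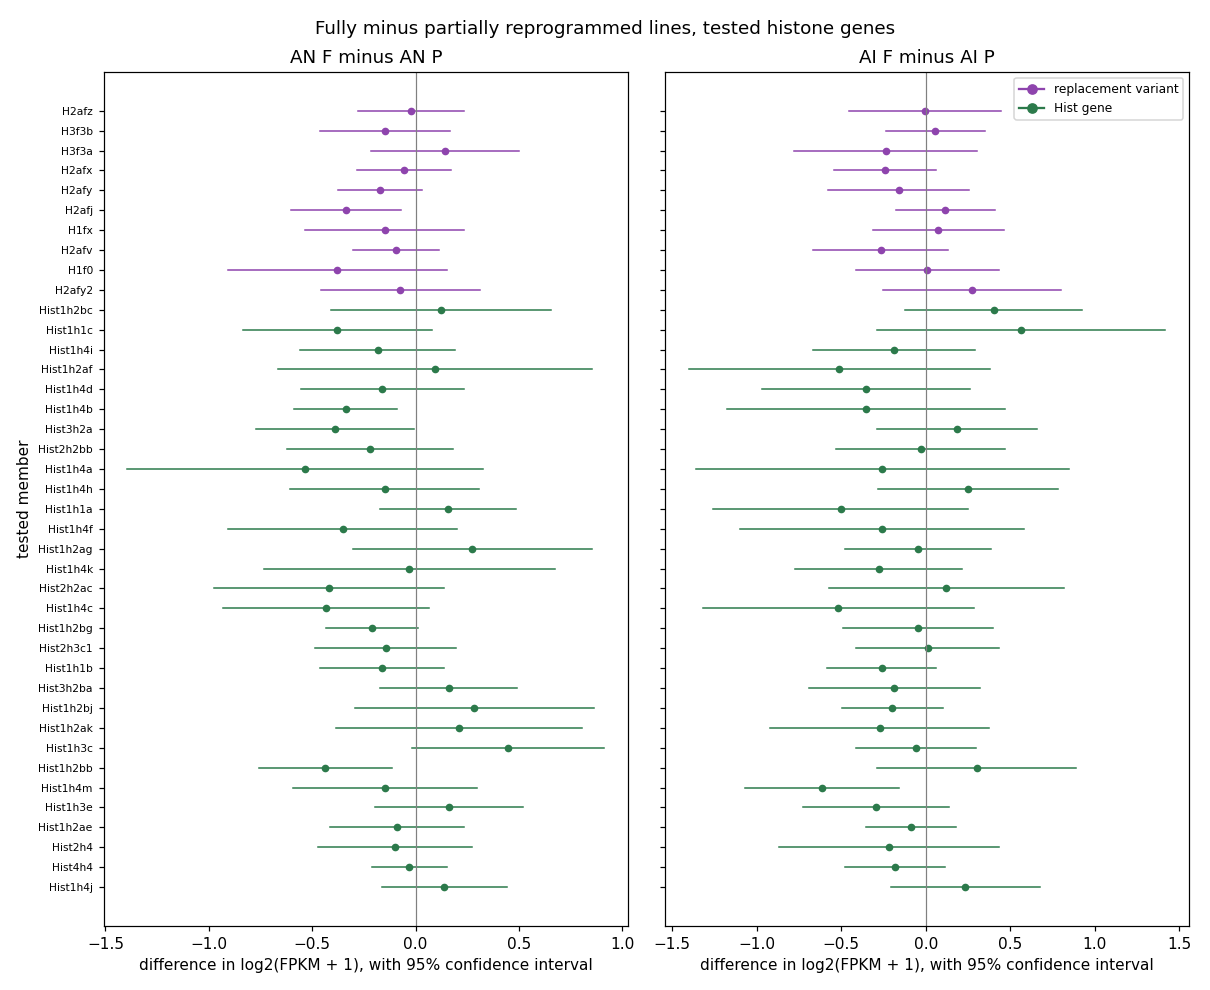
Difference in log2(FPKM + 1) between fully and partially reprogrammed lines for the 40 tested members, within AN (left) and within AI (right), with 95% confidence intervals from limma. Most intervals include 0, and none of the differences passed the adjusted p.

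Whether a member moved differently in AI and AN was tested as the difference of the effects, (AI F minus AI P) minus (AN F minus AN P), over 16 lines. No member passed (smallest adjusted p 0.29, limma), and 0 of all genes (0.0%) did. At an unadjusted p under 0.05, 4 members were higher, where 8.3% of all genes were higher and 8.34% lower, and none was lower. These were H2afj at 0.45 ± 0.18 (log2, SE), Hist1h2bb at 0.74 ± 0.29, Hist1h1c at 0.94 ± 0.41 and Hist3h2a at 0.57 ± 0.27. For H2afj the AI F lines were at 54.6 FPKM in AI3, 47.6 in AI7, 48.3 in AI10 and 46.4 in GS32, and the AI P lines at 53.5 in GS4, 43.9 in GS9 and 39.4 in AI9, which overlap. Hist1h2bb was at 1.41 FPKM in AI3, 0.646 in AI7, 0.791 in AI10 and 0.674 in GS32, at 0.739 in GS4 and 0.968 in GS9, and was listed at 0 in AI9.

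A second question, added here to the sequencing comparisons of the study, was how nuclear transfer lines differ from factor-induced lines of the same competence. For AN F against AI F, no member passed (smallest adjusted p 0.50, limma), and 1 of all genes (0.00758%) did. At an unadjusted p under 0.05, 3 members were higher in AN F and 2 lower, where 5.31% of all genes were higher and 4.13% lower. Hist1h2bb was lower in AN F in all 4 lines, at up to 0.458 FPKM against at least 0.646 in AI F, with a difference of -0.52 ± 0.14 (log2, SE), a limma p of 0.00421, adjusted p 0.50 and an exact permutation p of 0.0286. The AN F lines of H2afj were likewise below all AI F lines, at up to 44.0 against at least 46.4 FPKM, a difference of -0.38 ± 0.12, with a limma p of 0.0103, adjusted p 0.50 and an exact permutation p of 0.0286. That p is the smallest for 4 against 4 lines. These 2 were the members whose groups did not overlap, where 1.11% of all genes did not overlap in this direction and 2.05% in the other.

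Higher in AN F at an unadjusted p were H3f3a, Hist1h4j and Hist1h4m. H3f3a differed by 0.37 ± 0.15 (log2, SE) with overlapping lines. Hist1h4m, at 0.408, 0.570, 0.601 and 0.685 FPKM in AN1, AN9, AN15 and AN20, differed by 0.34 ± 0.12, and AI7 at 0.424 lay within the AN F range. Over the classes, 19 of 30 Hist genes were higher in AN F, with a median difference of 0.08, and 4 of 10 variants were, with a median of -0.05. The median over all genes was 0.02. Without AN20 the variant median was 0.0629, with 7 of 10 higher. The Hist median with a pseudocount of 0.1 was 0.18. In AN F 17 of 20 fibroblast markers were lower than in AI F (median -0.53) and all 11 pluripotent cell markers were higher (median 0.20), and their part was not tested.

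For AN P against AI P, no member passed (smallest adjusted p 0.72, limma), and 2 of all genes (0.0152%) did. Hist1h4j, an H4 gene, was the only member at an unadjusted p under 0.05, higher in AN P, where 3.21% of all genes were higher and 2.48% lower. It was at 0.382 FPKM in AN2, 0.651 in AN3, 0.730 in AN5, 0.355 in AN6 and 1.05 in AN7, at 0.385 in GS9, and was listed at 0 in AI9 and GS4. In the F lines it was at 1.11 FPKM in AN1, 0.691 in AN9, 0.729 in AN15 and 0.623 in AN20, and at 0.374 in AI3, 0.630 in AI10 and 0.322 in GS32, and was listed at 0 in AI7. The difference between AN P and AI P was 0.53 ± 0.17 (log2, SE), with a limma p of 0.0124 and an adjusted p of 0.72. The exact permutation p was 0.107, two-sided, where 5 against 3 lines can reach 0.0357. GS9 lay above AN2 and AN6, so the groups overlapped, and all values were 0 to 3 steps of about 1 read. No member was apart in this comparison, where 1.68% of all genes did not overlap with AN P higher and 1.65% with AN P lower.

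The next by p in AN P against AI P were Hist4h4 and Hist1h3e, an H4 and an H3 gene. Hist4h4 was at 0.583 FPKM in AN2, 0.510 in AN3, 0.482 in AN5, 0.484 in AN6 and 0.477 in AN7, and at 0.716 in GS4, 1.05 in GS9 and 0.518 in AI9, a difference of -0.21 ± 0.10 (log2, SE). Hist1h3e was at 0.612 FPKM in AN2, 0.521 in AN3, 0.780 in AN5 and 0.569 in AN6, was listed at 0 in AN7, and was at 0.943 in GS4, 1.03 in GS9 and 0.639 in AI9. Its difference was -0.34 ± 0.18. Neither passed, with adjusted p 0.72 by limma, and in both genes AI9 lay within the AN P range. The Hist and variant medians were 0.02 and 0.07 against -0.01 over all genes. All 20 fibroblast markers were higher in AN P than in AI P (median 0.71) and 10 of 11 pluripotent cell markers were lower (median -0.25), and their part was not tested.

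Fibroblast markers moved between lines, so the members were set beside them. Mouse embryonic fibroblasts were used as feeder cells, and all 20 fibroblast markers in the list were above 0 in every line. Their summed level ran from 874 to 1632 FPKM in AN F, 1103 to 2130 in AN P, 1144 to 2214 in AI F and 520 to 1885 in AI P. All 11 pluripotent markers in the table were above 0 in every line as well, at 2573 to 5145 FPKM in sum. The mean of the fibroblast markers was highest in GS32 and lowest in GS9. Chosen after the data were seen, a limma fit of every gene on that mean with the group as a term called 13.2% of all genes at an adjusted p of 0.05, and 4 of the 40 members.

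Hist1h1c had the steepest positive slope of the members, 0.87 ± 0.12 (log2 per log2 unit of the marker mean, SE), adjusted p 0.000207 by limma. It was past the threshold in all 21 fits tried, which left out each line in turn and changed the scaling, pseudocount or group term. It was at 3.73 FPKM in GS9, the line with the lowest marker mean, and at 15.1 FPKM in GS32, that with the highest, below AN3 alone. The other 3 members had negative slopes. Hist1h2ag, an H2A gene, had -0.60 ± 0.15 (adjusted p 0.0206, limma), H2afz -0.32 ± 0.09 (adjusted p 0.0387) and Hist1h2af -0.83 ± 0.26 (adjusted p 0.0495).

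Hist1h2ag was at 1.52 FPKM in AN1, 3.41 in AN9, 0.898 in AN15, 2.69 in AN20, 1.57 in AN2, 0.802 in AN3, 2.25 in AN5, 1.75 in AN6 and 1.15 in AN7. In AI lines it was at 1.54 FPKM in AI3, 2.22 in AI7, 1.55 in AI10, 1.06 in GS32, 1.23 in AI9, 1.57 in GS4 and 2.22 in GS9. AN9, with a low marker mean, was the highest line for Hist1h2ag, Hist1h2af and H2afz. The slopes of H2afz and Hist1h2af were past the threshold in 11 and 6 of 21 fits and kept their sign in all. Without the group term 30.6% of all genes and 8 members were called, among them H3f3a at -0.38 ± 0.11 and Hist1h2bc at 0.43 ± 0.15. The share of members called was below that of all genes in both fits. The part of feeder or other fibroblast RNA in these values was not tested. With the marker mean as a term, the median of the Hist genes in AI F against AI P was -0.02.

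**Figure D5:**
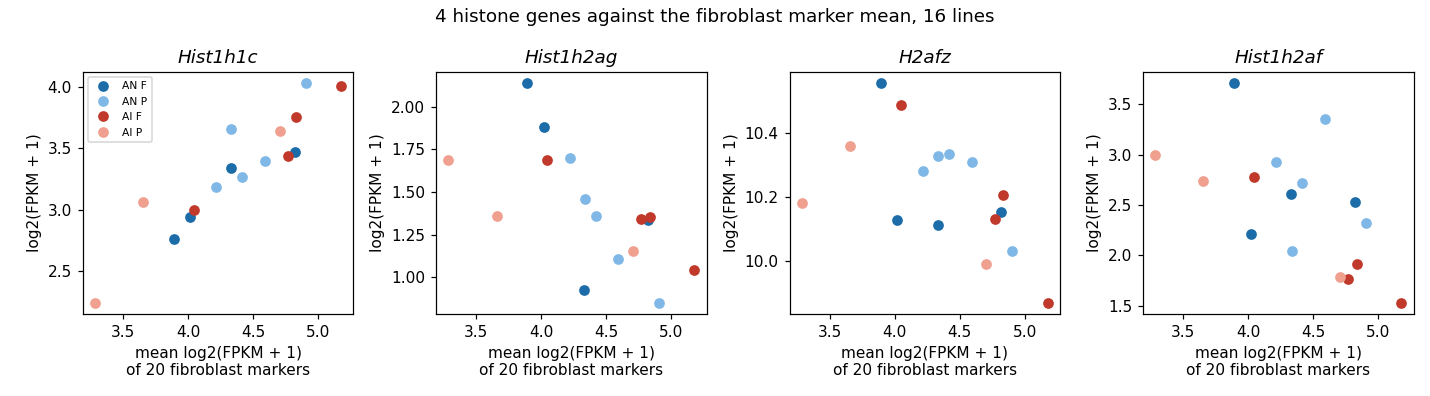
Level of Hist1h1c, Hist1h2ag, H2afz and Hist1h2af in each of 16 lines, as log2(FPKM + 1), against the mean log2(FPKM + 1) of 20 fibroblast markers, coloured by group. Hist1h1c is higher in lines with a higher marker mean, from GS9 at the lower left to GS32 at the right, and the other 3 genes are lower there.

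Genes that handle histones were described alongside, from lists chosen with earlier results of these data known. None of the 28 tested chaperones and exchange factors passed an adjusted p of 0.05 in the 4 pairwise comparisons, with a median difference of 0.07 in AN F minus AN P and -0.11 in AI F minus AI P. In the fit on the fibroblast marker mean, 3 of the 28 passed an adjusted p of 0.05 (limma), all with negative slopes. In that fit 13.2% of all genes passed, and the part of fibroblast RNA in these values was not tested. Nap1l1, a chaperone of H2A and H2B, was the highest of the list at 1333 FPKM. The gene with the smallest p in AN was Vps72, a subunit of the complexes that deposit H2A.Z, at -0.30 ± 0.13 (log2, SE), and in AI it was Ubn1, a subunit of the HIRA complex for H3.3, at 0.32 ± 0.14, with adjusted p 0.64 and 0.52 by limma.

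Among 30 genes for histone mRNA transcription and 3′ end processing, 21 were higher in AN F than in AN P, 6 of them at an unadjusted p under 0.05 (3.02% of all genes), with a median of 0.11, and 1 gene was lower at that p (2.99% of all genes). In AI, 24 were lower in F than in P, with a median of -0.12. The smallest p in AN was that of Npat, the coactivator of Hist gene transcription, at 0.42 ± 0.13 (log2, SE, adjusted p 0.64, limma), and in AI that of Ncbp2, a cap-binding protein, at -0.38 ± 0.17 (adjusted p 0.52). Lsm4 was the highest of the list at 173 FPKM. In AN the sign of this list is opposite to that of the Hist genes, and in AI it is the same. No gene of the list passed in a group comparison. In the fit on the fibroblast marker mean, 6 of the 30 passed an adjusted p of 0.05 (limma), all with negative slopes. In that fit 13.2% of all genes passed, and the part of fibroblast RNA in this list was not tested.

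S phase genes gave 26 of 39 higher in AN F, with a median of 0.06, and 33 of 39 lower in AI F, with a median of -0.11. Pcna, the sliding clamp of replication, was the highest at 497 FPKM. The smallest p was that of Gins1, of the replicative helicase, in AN, at -0.17 ± 0.07 (log2, SE, adjusted p 0.64, limma), and that of Ccna2, cyclin A2, in AI, at -0.33 ± 0.15 (adjusted p 0.52). No S phase gene passed in any of these comparisons. On the fibroblast marker mean, 11 of 39 passed an adjusted p of 0.05 (limma), all with negative slopes, where 13.2% of all genes passed. The part of fibroblast RNA in these values was not tested either.

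As a description over 16 lines that share groups and scaling, the genes with levels most like those of H2afz were Pmf1, Nme1 and Chtf8 (Pearson r of 0.86, 0.85 and 0.84). For H3f3b they were 2310068J16Rik, 5730528L13Rik and Tchh (0.89, 0.87 and 0.86), and for Hist1h2bc they were Edil3, Pigk and Lox (0.83, 0.80 and 0.80).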

How the data were processed

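RNA-seq of 16 mouse lines was used. Per the labels and methods, the authors extracted total RNA with Trizol, sequenced single reads on a HiSeq-2500, aligned them with TopHat2 2.1.0 to mm9 and computed FPKM with Cufflinks 2.2.1; the deposited table holds FPKM per gene and line, with no counts. HTSeq is also named, without a version. How the RNA was selected and whether libraries kept strand is not given in the sources used here. Lines were put in AN F, AN P, AI F or AI P by line name (sample title) as the study lists them, although the source label of GS9 and GS32 names GS4. The 82 members and all lists were chosen with earlier results of these data known.

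Values were taken as log2(FPKM + 1), a scale that understates changes of low genes. Genes with a mean of at least 0.5 FPKM were tested with limma 3.58.1 (R 4.3.3, mean-variance trend) between the groups compared, with Benjamini-Hochberg adjustment over 13185 genes, and named members also by exact two-sided permutation (scipy 1.17.1). The scripts were tested on simulated data. Named were the 6 highest members of each class, the 3 smallest p per comparison and members whose groups did not overlap. Stem-loops and 51-base stretches were read from mm9 and GENCODE annotation, which holds 81 of the 82 members. Alternatives covered pseudocount, filter, scaling, fit, passage, derivation and leaving out each line. Depth per line is unknown and was only estimated relative to AN1.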

Additional observations from a re-analysis of the deposited data

Results flagged for a closer look

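Of 63 groups of 4 or 5 lines examined for the 19 named members and the sums of both classes, 6 held a line whose distance from its nearest neighbour took up more of the group's range than Dixon's 95% critical value allows. Chance flags about 1 group in 20. H2afz was flagged in both AN groups. In AN F, AN9 was at 1508 FPKM and the other 3 lines at 1105 to 1137, and in AN P, AN3 was at 1045 FPKM and the other 4 at 1245 to 1291. H2afx in AN P was at 123 FPKM in AN6 and at 151 to 156 in the others. Hist1h4i in AN F was at 10.8 FPKM in AN15 and at 6.30 to 7.02 in the others. Hist1h1b in AN P was at 1.24 FPKM in AN7 and at 0.948 to 1.01 in the others. Hist4h4 in AI F was at 0.338 FPKM in AI10 and at 0.602 to 0.637 in the others. AI P, with 3 lines, was not examined. No difference of effects between AI and AN passed the adjusted p.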

How the results depend on the processing

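The count of members past an adjusted p of 0.05 was 0 in each of the 5 group comparisons under every alternative run, including an adjusted p under 0.1. Class medians had no test, and the Hist median moved with the filter. With a mean of at least 5 FPKM (4 Hist genes) it was -0.0443 for AN F minus AN P, 0.11 for AI F minus AI P, 0.26 for AN P minus AI P and 0.14 for the difference of effects. In the main fit these medians were -0.15, -0.19, 0.02 and -0.05. Of these, the sign changed for AI F minus AI P and for the difference of effects. With no filter the Hist median was 0 and -0.0407 for the comparisons within AN and within AI. With a pseudocount of 0.1 it was -0.29 for AI F minus AI P and 0.18 for AN F minus AI F, and with the fibroblast marker mean as a term, added after the data were seen, -0.0205 for AI F minus AI P. The variant median was 0.17 for AI F minus AI P with lines rescaled without small RNA genes, a scaling that moved the median of all genes there from -0.04 to 0.10. Under this and the 2 other scalings the Hist median stayed below 0 within AN and within AI. For the difference of effects the variant median was 0.31 with quantile normalization, 0.26 with that rescaling and 0.29 with the fibroblast term. The causes were not tested.

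Leaving out each line in turn, the Hist median ran from -0.26 to -0.0609 for AI F minus AI P (without GS9 at the upper end), from -0.11 (without AI9) to 0.0892 for AN P minus AI P, from -0.15 (without AI9) to -0.00241 for the difference of effects, and within AN from -0.17 (without AN5) to -0.0805 (without AN1). The variant median ran from -0.18 (without AN1) to -0.0241 (without AN20) within AN and from -0.12 (without GS32) to 0.0629 (without AN20) for AN F minus AI F, where it changed sign. Members lower at an unadjusted p under 0.05 within AN ran from 2 (without AN20) to 7 (without AN1). Members following the fibroblast mean numbered 2 with median-ratio scaling, 2 with rescaling without small RNA genes and 8 without the group term, and 1 (without AI7) to 5 (without GS9) on leaving out a line. They were 2 without AN9, AN2, AN3, AI3 or AI9. No named difference changed sign. No paired analysis was possible because replicate numbers only name the lines. FPKM gives no read totals, so differences of a few reads in low Hist genes cannot be given a counting error.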

Other observations

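RNAs that lack a poly(A) tail for reasons other than the histone stem-loop were also present in the table. Of 10 such genes in the table, 5 were tested, and none passed an adjusted p of 0.05 by limma in any comparison. Rnu73b had the highest mean, 466 FPKM, and ranged from 0 to 1087 FPKM between lines, and Rpph1, the RNA of RNase P, averaged 7.61 FPKM and ranged from 1.04 to 22.5. For Rpph1 the difference AN F minus AN P was -0.93 ± 0.25 (log2, SE, adjusted p 0.64). Of these 5 genes, 1 was lower in AN F than in AN P at an unadjusted p under 0.05 (limma). Among all genes 2.99% were lower and 3.02% higher there. Within AI the number was 0, where 4.3% of all genes were lower and 3.47% higher. In AN P against AI P 1 was higher, where 3.21% of all genes were higher and 2.48% lower.

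The 2 genes outside the histone set with a stem-loop match after the stop codon were 1700014N06Rik and Ttc14.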
